A study of Rattus norvegicus with 26 samples.

Results

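The genes studied here mark newborn neurons of the dentate gyrus (DG), the hippocampal subregion in which neurons are still added after birth. They are 10 genes chosen by name, namely Dcx, Sox11, Sox4, Igfbpl1, Tubb2b, Neurod1, Stmn1, Dpysl3, Draxin and Eomes, and 8 of them have values among the 17910 genes of the series. Sox4 and Eomes were not analysed here. All 8 passed the filter of a mean of at least 5 normalized counts, which 15595 genes passed. RNA was sequenced from the DG of 26 male F344 rats aged 6 months, with 1 library per rat from a single hemisphere. The Veh group (n = 10) received vehicle only, and the Dox group (n = 8) received weekly injections of the anthracycline doxorubicin, each of 2 mg/kg, over 4 weeks. The Dox + ABT group (n = 8) received the same doxorubicin and, by gavage, 12 mg/kg of the senolytic ABT-263, which blocks survival proteins of the Bcl-2 family. The study describes oral vehicle for the Veh rats, which belonged to an ongoing study of brain aging. Whether the Veh rats were injected, and whether the Dox rats received oral vehicle, is not given in the sources used here. The rats had also been tested for behavior before tissue was taken.

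In the adult DG, radial stem cells of the subgranular zone give rise to dividing progenitors, which leave the cell cycle as neuroblasts and mature over weeks into granule cells. Progenitors use the transcription factors Eomes and Neurod1, the SoxC factors Sox4 and Sox11 act as the cells become neurons, and the microtubule proteins Dcx, Tubb2b and Stmn1 and the cytoskeletal protein Dpysl3 serve the growth of their processes. Igfbpl1 is a secreted protein related to the insulin-like growth factor binding proteins, and Draxin is a secreted axon guidance protein. Several of these genes, Neurod1, Stmn1 and Dpysl3 among them, are also transcribed in other cells of this tissue. In bulk tissue, fewer cells of a type and less RNA per cell cannot be told apart.

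The promoters of the 3 members that passed the test in a comparison, and that of Dcx, the standard marker of the stage, are shown because these 4 genes carry the contrasts below. Each is the 250 bases before the start of the gene, 5′ to 3′ on the gene's strand, from RefSeq on the build GRCr8, another build than the rn6 of the expression values. Capitals mark an E-box, the letters that Neurod1 and related basic helix-loop-helix factors read, searched as CAGNTG and, for the other strand, CANCTG.
Igfbpl1, chr5:64887462-64887711, minus strand: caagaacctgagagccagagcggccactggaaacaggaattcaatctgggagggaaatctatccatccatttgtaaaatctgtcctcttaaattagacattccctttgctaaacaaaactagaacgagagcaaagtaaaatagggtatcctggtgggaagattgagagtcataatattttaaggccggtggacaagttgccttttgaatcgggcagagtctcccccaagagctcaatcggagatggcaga
Tubb2b, chr17:30952836-30953085, plus strand: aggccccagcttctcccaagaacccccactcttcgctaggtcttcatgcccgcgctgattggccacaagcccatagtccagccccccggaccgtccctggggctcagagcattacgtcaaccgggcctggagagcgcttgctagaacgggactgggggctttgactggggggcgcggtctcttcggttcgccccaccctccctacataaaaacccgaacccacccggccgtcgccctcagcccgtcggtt
Neurod1, chr3:84770455-84770704, minus strand: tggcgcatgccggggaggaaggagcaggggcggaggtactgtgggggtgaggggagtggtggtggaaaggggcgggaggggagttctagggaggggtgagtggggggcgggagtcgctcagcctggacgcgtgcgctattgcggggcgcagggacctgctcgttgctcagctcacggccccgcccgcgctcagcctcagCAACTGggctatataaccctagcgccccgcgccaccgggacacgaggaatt
Dcx, chrX:112304162-112304411, minus strand: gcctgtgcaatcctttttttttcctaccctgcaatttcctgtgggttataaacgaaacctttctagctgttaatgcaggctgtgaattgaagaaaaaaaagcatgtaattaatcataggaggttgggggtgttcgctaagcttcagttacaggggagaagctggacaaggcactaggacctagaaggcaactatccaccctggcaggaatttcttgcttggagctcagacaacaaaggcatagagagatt
The promoters differ in these letters and in base composition. Neurod1 held 1 E-box, 51 bases before its start, and the windows of Igfbpl1, Tubb2b and Dcx held none. GC content was 44.4% for Igfbpl1 and 44% for Dcx, against 65.2% for Tubb2b and 69.2% for Neurod1. RefSeq gave 11 such windows for 9 of the 10 members, and 6 of them held an E-box (54.55%), against 43.31% of all 33469 promoter windows of this length. The core of the Sox motif, ACAAT or ATTGT, which does not overlap the E-box letters, lay in 2 of the 11 windows (18.18%) and in 30.02% of all. A match describes letters only.

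Values are normalized counts, the reads of a gene divided by a factor of its library, with the rows of 1 gene summed. Differences are log2 fold changes of normalized count + 1 from limma's moderated test over all 26 rats, two-sided, and a gene passed at p under 0.01 without adjustment, the study's threshold. Changes of low genes are understated on this scale. Igfbpl1, Sox11 and Draxin rested on few reads. Igfbpl1 had an estimated 4 to 26 reads per library (median 14.5), Sox11 11 to 37 (median 22.5) and Draxin 2 to 23 (median 6.5), while Dcx had 115 to 331 (median 184).

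The libraries also fell into 2 kinds within the groups. A principal component analysis of deviations within groups put 28.4% of the variance on its first axis, which parted 16 libraries (4 Veh, 5 Dox and 7 Dox + ABT) from 10 (6 Veh, 3 Dox and 1 Dox + ABT), here the first and second kind. The share of ribosomal protein genes was 0.891% ± 0.128 (SD, n = 16) in libraries of the first kind but 1.48% ± 0.208 (SD, n = 10) in those of the second, a description only, since the axis was drawn from these values. Estimated reads per library ran from 10166100 to 24326700. The labels name no batch, and the kinds were found from the values with the listed genes left out.

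**Figure D1:**
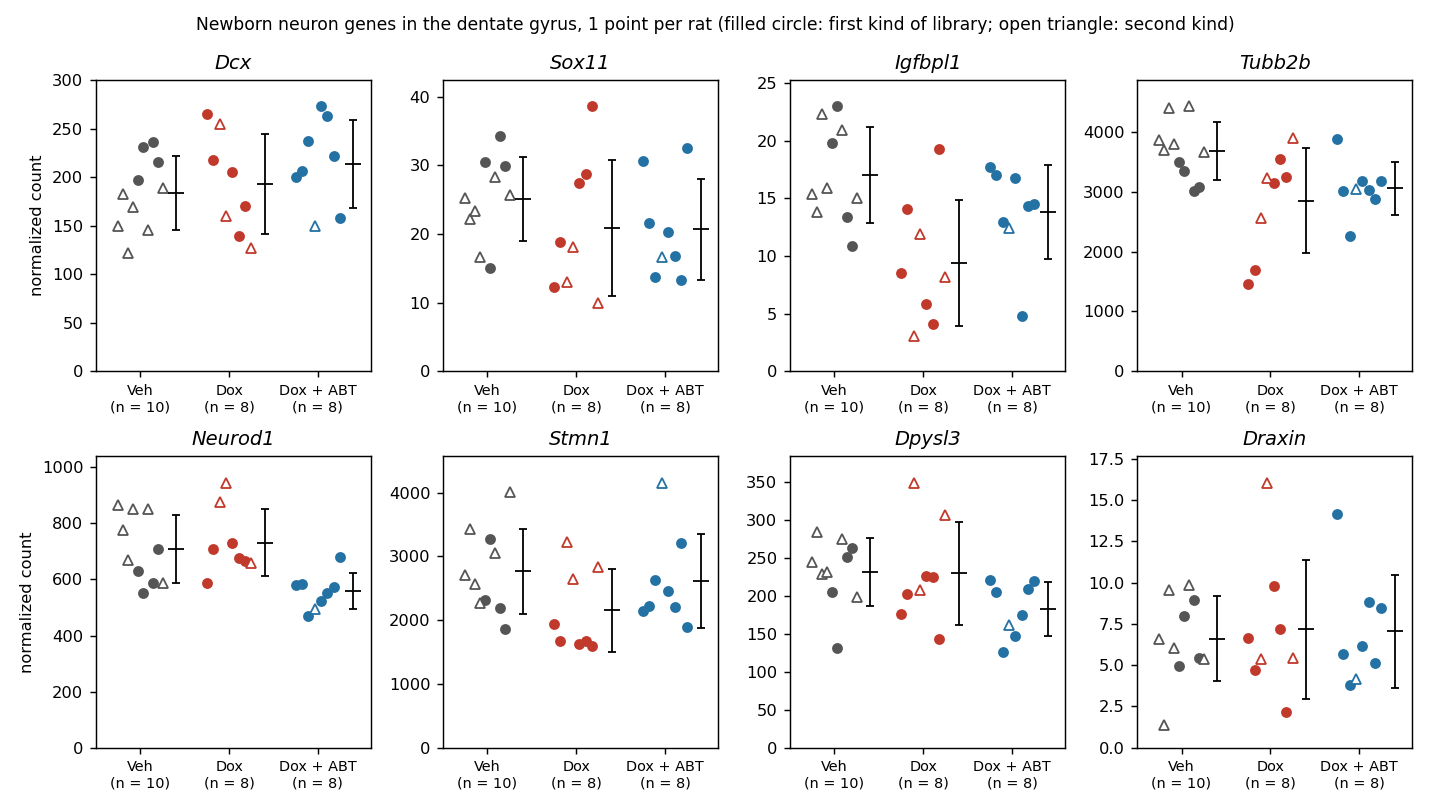
Normalized counts of the 8 members in each rat, by group (vertical axes from 0), with the mean and SD as a bar beside the points; filled circles are libraries of the first kind and open triangles of the second. Igfbpl1 lies below every Veh rat in 5 of 8 Dox rats, Neurod1 below every Veh rat in 4 of 8 Dox + ABT rats, and Dcx overlaps in all groups.

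The comparison of Dox with Veh asks whether doxorubicin treatment changed these transcripts. Igfbpl1 and Tubb2b were lower in Dox, Dcx differed little between the group means, and no member was higher at the threshold. Of the 8 members, 2 fell and 0 rose, where 1.85% of all tested genes were lower and 1.02% higher. The median log2 fold change was -0.19 over the 8 members and 0.005 over all tested genes, and -0.14 over the members with the kind as a covariate.

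Igfbpl1 had a lowest value of 10.9 normalized counts, a median of 15.6 and a highest of 23.0 in Veh. In Dox these were 3.07, 8.36 and 19.3, and in Dox + ABT 4.82, 14.4 and 17.7. The Dox rats lay mostly under the Veh range, with 5 of 8 below every Veh rat and 7 of 8 below the Veh median. Dox rat 13, at 19.3, was the 1 rat above it. The mean fell from 17.0 ± 4.16 (SD, n = 10) to 9.38 ± 5.46 (SD, n = 8). The log2 fold change was -0.94 (95% interval -1.51 to -0.38, standard error 0.28, limma p = 0.00191, adjusted p = 0.212). The exact permutation test of the same difference gave p = 0.00256. The call held when each rat was left out in turn, with limma p from 0.000306 to 0.00666.

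Tubb2b, a beta-tubulin isotype of growing neurons, ranged from 3018 to 4427 normalized counts in Veh (median 3682) and from 1456 to 3904 in Dox (median 3188). Dox rats 1 and 2, with 1456 and 1689, stood far below the rest, and 7 of 8 Dox rats lay below the Veh median although only 3 lay below every Veh rat. The means were 3680 ± 478 (SD, n = 10) and 2848 ± 875 (SD, n = 8), and the log2 fold change was -0.43 (95% interval -0.73 to -0.13). Its limma p was 0.00665 and its adjusted p = 0.307. This call did not hold in the exact permutation test (p = 0.0138), nor without Veh rat 1, 3, 4 or 9 or Dox rat 1, 2 or 5 (limma p up to 0.0240). Its near-identical neighbor Tubb2a, with which short reads can be exchanged and for which RefSeq lists Tubb2b as a synonym, had 14054 ± 1826 (SD, n = 10) in Veh and 15216 ± 2195 (SD, n = 8) in the Dox rats. The log2 fold change of Tubb2a was 0.11 (95% interval -0.10 to 0.33, limma p = 0.284), a value of the other sign.

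Stmn1, a protein that takes up free tubulin, had a median of 2632 normalized counts in Veh (1855 to 4008) and 1813 in Dox (1599 to 3231). The 4 lowest Dox rats lay below every Veh rat, and the log2 fold change was -0.38 (95% interval -0.71 to -0.04), with limma p = 0.0297. Without Dox rat 5, the highest Dox rat, it was -0.47 (limma p = 0.00727), and without Veh rat 12 it was -0.31, with limma p up to 0.0680 over the rats left out in turn. With the kind as a covariate it was -0.25 (limma p = 0.0456), and the exact permutation test over all rats gave p = 0.0517. Sox11 had a median of 25.5 in Veh (15.0 to 34.2) and 18.5 in Dox (10.0 to 38.6), so that the Dox rats reached beyond the Veh range on both sides; its log2 fold change was -0.34 (95% interval -0.83 to 0.14).

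Dcx, the microtubule protein that defines migrating neuroblasts, had 184 ± 38.0 (SD, n = 10) normalized counts in Veh and 193 ± 51.4 (SD, n = 8) in Dox. The ranges were 122 to 237 and 127 to 266, and 4 of 8 Dox rats lay on either side of the Veh median. Its log2 fold change of 0.05 had a 95% interval of -0.27 to 0.37, which leaves room for a change of moderate size in either direction. The other 3 members likewise did not pass. Neurod1 had a log2 fold change of 0.05 (95% interval -0.16 to 0.26), Dpysl3 -0.03 (-0.36 to 0.29) and Draxin 0.05 (-0.60 to 0.70).

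**Figure D2:**
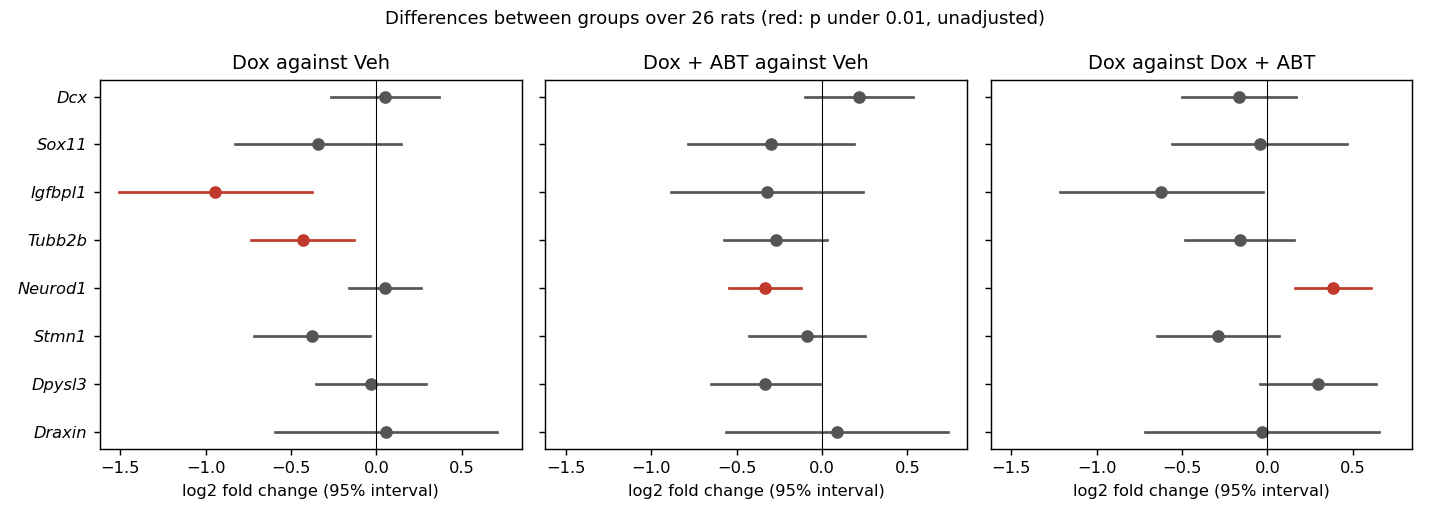
Log2 fold changes of the 8 members (horizontal axis) with 95% intervals in the 3 comparisons, from 1 fit over 26 rats; red marks p under 0.01 without adjustment. Igfbpl1 and Tubb2b lie below 0 in Dox against Veh, and Neurod1 lies below 0 in Dox + ABT against Veh and above 0 in Dox against Dox + ABT.

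In Dox + ABT against Veh, the member that passed the threshold was Neurod1, although 6 of the 8 had negative values and Dpysl3 (-0.33) and Igfbpl1 (-0.32) lay at similar values. Over all tested genes, 50.1% had negative values. The call for Neurod1 did not hold with the kind as a covariate (-0.23, limma p = 0.0279). This comparison shares the Veh rats with the one before, so the values stand side by side. Of the 8 members, 1 fell and 0 rose, where 3.95% of all tested genes were lower and 3.89% higher, and the median log2 fold change was -0.28 over the members, -0.17 with the kind as a covariate, and -0.0009 over all tested genes. Neurod1, the basic helix-loop-helix factor of the step from progenitor to neuron, ranged from 553 to 865 normalized counts in Veh (median 688) and from 470 to 680 in Dox + ABT (median 562). All 8 Dox + ABT rats lay below the Veh median and 4 of them below every Veh rat. The mean fell from 708 ± 120 (SD, n = 10) to 557 ± 64.2 (SD, n = 8). The log2 fold change was -0.33 (95% interval -0.54 to -0.12, limma p = 0.00300, adjusted p = 0.109; exact permutation p = 0.00574).

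Dpysl3, a collapsin response mediator protein of growing axons, had a median of 238 normalized counts in Veh (131 to 284) and 190 in Dox + ABT (127 to 220). All 8 Dox + ABT rats were below the Veh median, but Veh rat 6 was lower than all but 1 of them, and the log2 fold change was -0.33 (95% interval -0.65 to -0.01, limma p = 0.0443). Without Veh rat 6 it was -0.42 (limma p = 0.00733), and without Dox + ABT rat 3, -0.26 (limma p = 0.114). Tubb2b had 3058 ± 444 (SD, n = 8), a log2 fold change of -0.27 (95% interval -0.57 to 0.03, limma p = 0.0779; exact permutation p = 0.0101). Igfbpl1 had 13.8 ± 4.10 (SD, n = 8), and its difference from Veh of -0.32 (95% interval -0.89 to 0.24) did not pass. Without Dox + ABT rat 6 that difference was -0.14 (limma p = 0.595). Dcx was at 214 ± 45.0 (SD, n = 8), a difference of 0.21 (95% interval -0.10 to 0.53), with 6 of 8 rats above the Veh median.

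The direct comparison of Dox with Dox + ABT asks what the senolytic, with its gavage, added to doxorubicin. The sources do not describe oral vehicle for the Dox rats. Neurod1 was higher in Dox than in Dox + ABT, and it was the only member of the 8 to pass, with 1 higher and 0 lower where 2.32% of all tested genes were higher and 1.71% lower. All 8 Dox rats, at 587 to 945 normalized counts (median 692), lay above the Dox + ABT median, and 4 lay above every Dox + ABT rat. The log2 fold change was 0.38 (95% interval 0.16 to 0.61, limma p = 0.00140, adjusted p = 0.166; exact permutation p = 0.00155). Igfbpl1 was lower in Dox than in Dox + ABT by -0.62 on the log2 scale (95% interval -1.22 to -0.03, limma p = 0.0414) and did not pass. Without Dox + ABT rat 6, whose 4.82 normalized counts were the lowest of its group, that difference was -0.80 (limma p = 0.00680), and without Dox rat 13, the highest of its group, it was -0.78 (limma p = 0.00950). Without Dox rat 5 it was -0.45 (limma p = 0.114), with the kind as a covariate -0.59 (limma p = 0.0582), and the exact permutation test over all rats gave p = 0.0875. Stmn1 stood at -0.29 (95% interval -0.65 to 0.07) and Dpysl3 at 0.30 (-0.04 to 0.64).

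The kind of library moved with many genes, since 35.1% of all tested genes passed between the kinds with the groups kept. Among the members, Stmn1 and Dcx passed. With the groups kept, Stmn1 was higher in the second kind than in the first by 0.57 (limma p = 1.43e-05, adjusted p = 0.000143), Dcx was lower by -0.38 (p = 0.00519, adjusted p = 0.0167), and Neurod1 (0.21), Tubb2b (0.28) and Dpysl3 (0.28) were higher at p from 0.0203 to 0.0474. Igfbpl1 differed by -0.11 (limma p = 0.676). Since Veh held more libraries of the second kind than either treated group, each comparison was fitted again with the kind as a covariate.

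With that covariate, Igfbpl1 in Dox against Veh was as low as before, at -0.97 (limma p = 0.00202, adjusted p = 0.215), and it was the only member of 8 to pass, where 1.63% of all tested genes were lower at the threshold. Tubb2b was at -0.37 (limma p = 0.0123). Within the first kind, Igfbpl1 had 16.8 ± 5.59 (SD, n = 4) normalized counts in Veh and 10.4 ± 6.25 (SD, n = 5) in Dox. Within the second kind it had 17.2 ± 3.50 (SD, n = 6) and 7.71 ± 4.42 (SD, n = 3). The drop thus lay in the same direction in both kinds, with log2 fold changes of -0.77 (limma p = 0.0689) and -1.20 (limma p = 0.00915) and a difference between them of -0.43 (limma p = 0.469). Of all tested genes, 4.68% passed in either direction within the first kind and 5.25% within the second. For the difference between the kinds, 7.75% passed.

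Stmn1 showed another order. In the first kind all 5 Dox rats lay between 1599 and 1948 normalized counts, a spread of 140 (SD) around a mean of 1705, against 2411 ± 612 (SD, n = 4) in Veh and 2395 ± 432 (SD, n = 7) in Dox + ABT. In the second kind the 3 Dox rats averaged 2904 ± 298 (SD, n = 3) and the Veh rats 3002 ± 635 (SD, n = 6). The log2 fold change of Dox against Veh was -0.47 (limma p = 0.00549, adjusted p = 0.185) in the first kind and -0.03 in the second, and the difference between the kinds, 0.44, did not pass (limma p = 0.0602). In the first kind, 4.68% of all tested genes passed in this comparison. Sox11 stood at -0.15 in the first kind and -0.76 in the second (limma p = 0.638 and 0.0329), a difference of -0.61 (p = 0.203).

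For Dox + ABT against Veh, the covariate left no member past the threshold (0 of 8, where 0.731% of all tested genes were lower). Neurod1 was at -0.23 (limma p = 0.0279), which is on the other side of the threshold. Within the first kind, where 7 of the 8 Dox + ABT rats lie, Neurod1 had 566 ± 64.0 (SD, n = 7) normalized counts against 619 ± 66.9 (SD, n = 4) in Veh. The log2 fold change there was -0.13 (limma p = 0.261). Of the other differences, 3 shrank. Dpysl3 was at -0.20 with the covariate (limma p = 0.226) and -0.17 within the first kind (p = 0.374), Tubb2b at -0.14 (p = 0.356) and -0.09 (p = 0.609), and Dcx at 0.04 (p = 0.809) and 0.0002 (p = 0.999). Sox11 went instead from -0.30 to -0.49 with the covariate (limma p = 0.0576), Igfbpl1 from -0.32 to -0.37 (limma p = 0.229) and Stmn1 from -0.09 to 0.18 (limma p = 0.165), while Draxin changed little (0.09 and 0.07). For Dox against Dox + ABT, the covariate kept Neurod1 higher (0.33, limma p = 0.00245), where 2.73% of all tested genes were higher. Stmn1 then also passed, lower in Dox by -0.43 (limma p = 0.00190, adjusted p = 0.139), where 2.04% were lower. In the first kind alone Stmn1 was at -0.48 (limma p = 0.00170, adjusted p = 0.0682) and Neurod1 at 0.25 (limma p = 0.0252). There 8.12% of all tested genes passed in either direction. The second kind held 1 Dox + ABT rat and gave no value for these 2 comparisons.

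**Figure D3:**
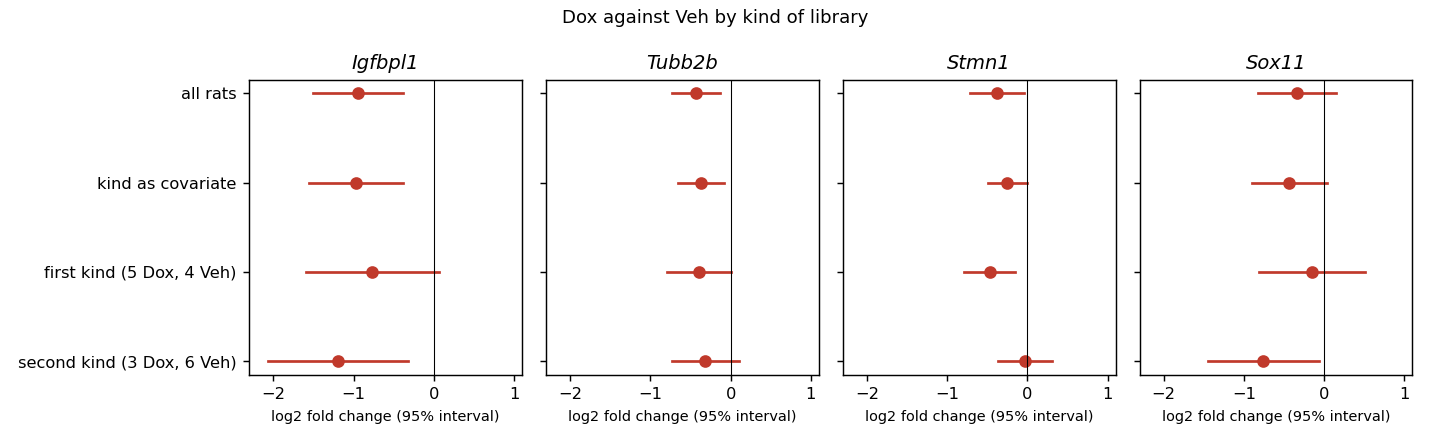
Log2 fold changes of Dox against Veh (horizontal axis) with 95% intervals for Igfbpl1, Tubb2b, Stmn1 and Sox11, over all rats, with kind as a covariate, and within each kind. Igfbpl1 lies at -0.77 and -1.20 in the kinds, while Stmn1 lies at -0.47 in the first kind and -0.03 in the second.

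The values of 4 members are sums over several transcript rows, which were estimated by the authors' counting, and the rows did not all move together. Neurod1 had a main row with 88.9% of its signal, which went from 644 ± 121 (SD, n = 10) in Veh to 470 ± 55.7 (SD, n = 8) in Dox + ABT rats. This row had a log2 fold change of -0.44 (limma p = 0.000614, adjusted p = 0.136 over 20203 rows). The minor row went from 63.9 ± 31.0 (SD, n = 10) to 87.5 ± 25.5 (SD, n = 8). Its log2 fold change was 0.54 (limma p = 0.0412, adjusted p = 0.241). The main and the minor row thus had opposite signs. The kind of library moved with both, since the main row was higher in the second kind than in the first by 0.31 (limma p = 0.00138) and the minor row lower by -0.65 (limma p = 0.00306). With the kind as a covariate the main row was at -0.29 (limma p = 0.00782) and the minor row at 0.23 (limma p = 0.335).

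Tubb2b had a main row with 69.2% of its signal and a second row with 30.8%. In Dox against Veh both were lower, by -0.41 (limma p = 0.0480) and -0.56 (limma p = 0.00772), and with the covariate they were at -0.33 (limma p = 0.0947) and -0.54 (limma p = 0.0116), so that the second row no longer passed. In Dox + ABT against Veh the main row stood at -0.06 (limma p = 0.764), while the second row stood at -0.72 (limma p = 0.000888, adjusted p = 0.136). The second row went from 1279 ± 378 (SD, n = 10) to 762 ± 182 (SD, n = 8) normalized counts. It differed by 0.08 between the kinds (limma p = 0.676), and with the covariate it was at -0.68 (limma p = 0.00338). For Stmn1 the main row held 92.9% of the signal and differed by -0.06 in Dox + ABT against Veh, and the second row, with 5.89%, by -0.76 (limma p = 0.00258, adjusted p = 0.136). That second row was higher in the second kind of library by 0.66 (limma p = 0.000716), and with the covariate it was at -0.44 (limma p = 0.0362). The first Dpysl3 row held 50.9% of its signal and the second 49.1%. In Dox against Veh these stood at 0.17 (limma p = 0.479) and -0.20 (limma p = 0.301), where the sum stood at -0.03. In Dox against Dox + ABT they stood at 0.52 (limma p = 0.0526) and 0.07 (limma p = 0.718). The first row was higher in the second kind of library by 0.54 (limma p = 0.0128), and the second row by 0.003 (limma p = 0.985). Which reads went to which row is an estimate, and no test compared the rows with each other.

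Across rats, the members did not rise and fall as 1 set. Deviations left after additive effects of group and kind were removed were compared between Dcx and each of the other 7 members over the 26 rats, by permutation tests within group and kind adjusted over the 7 pairs. These permutations hold fixed the means that the additive fit leaves in each combination of group and kind. The p values thus bear on the order of rats within a combination rather than on the whole of r. Tubb2b was lower where Dcx was higher (Pearson r = -0.61, p = 0.00708, adjusted p = 0.0248; Spearman rho = -0.69, p = 0.000530, adjusted p = 0.00371), and r was -0.54 without the 2 rats farthest from the Dcx median. It was -0.65 within the first kind (n = 16, permutation p = 0.0342, adjusted p = 0.0798) and -0.95 within the second (n = 10, permutation p = 0.000770, adjusted p = 0.00539). Stmn1 was higher where Dcx was higher (r = 0.44, p = 0.00630, adjusted p = 0.0248; rho = 0.46, p = 0.00949, adjusted p = 0.0221), with r = 0.39 without the 2 farthest rats, but r was -0.12 when the group means alone were removed. Sox11 gave r = -0.49 (permutation p = 0.0246, adjusted p = 0.0575) and rho = -0.56 (p = 0.00747, adjusted p = 0.0221), with r = -0.47 without the 2 farthest rats, -0.67 within the first kind and 0.05 within the second. With the group means alone removed, Sox11 gave r = -0.18 (permutation p = 0.435, adjusted p = 0.609) and rho = -0.19 (p = 0.381, adjusted p = 0.533). Igfbpl1, Neurod1, Dpysl3 and Draxin gave r from -0.33 to -0.05 (adjusted p from 0.362 to 0.840), and some of these differed between the kinds. Igfbpl1 had r = -0.05 within the first kind and -0.82 within the second (n = 10, permutation p = 0.0580, adjusted p = 0.203; rho = -0.84, p = 0.0216, adjusted p = 0.0757). Neurod1 had r = -0.58 within the first kind (n = 16, permutation p = 0.0205, adjusted p = 0.0716) and 0.24 within the second. The difference between kinds was not tested. When the mean of each combination of group and kind was removed instead, an alternative chosen after seeing the data, r was -0.68 for Tubb2b (permutation p = 0.00170, adjusted p = 0.0119), 0.43 for Stmn1 (p = 0.0133, adjusted p = 0.0464) and -0.45 for Sox11 (p = 0.0458, adjusted p = 0.107). Pairs of members without Dcx were not tested. With additive effects removed, their r ran from -0.54 (Stmn1 with Neurod1) to 0.52 (Tubb2b with Sox11).

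**Figure D4:**
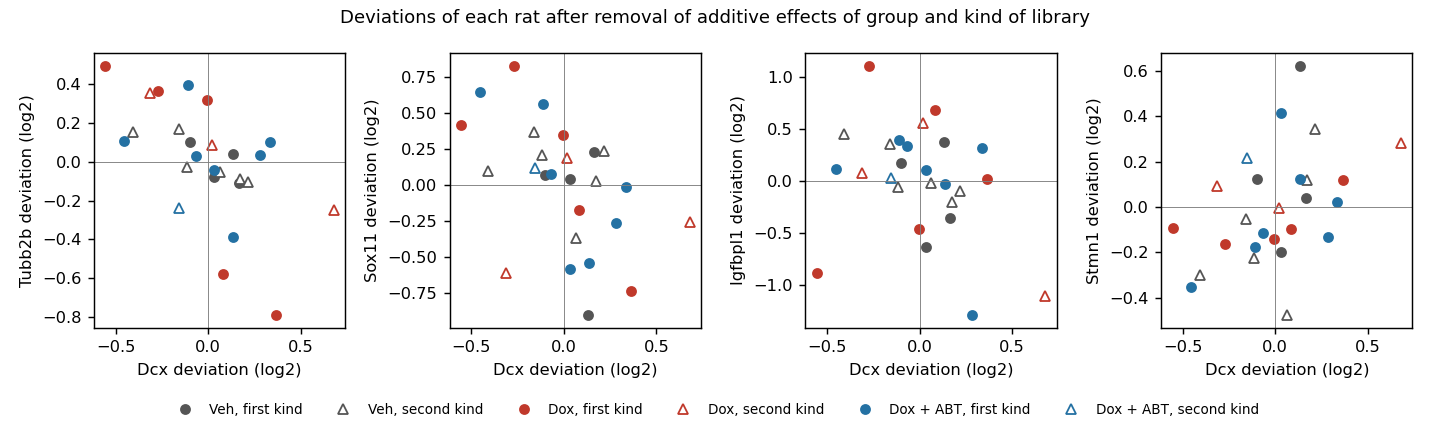
Deviation of each rat after removal of additive effects of group and kind of library, on the log2 scale, for Dcx (horizontal axis) and for Tubb2b, Sox11, Igfbpl1 and Stmn1 (vertical axes); colors are groups and symbols are kinds. Tubb2b falls as Dcx rises (r = -0.61), and Stmn1 rises (r = 0.44).

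The 6 genes whose deviations were most like those of Dcx, out of 13661 genes with means of 20 or more, were Prkdc (r = 0.91), Cep162 (0.90), Fam135a (0.89), Impact, Tpp2 and Zfp810 (each 0.86). The members were left out of this search, and the values describe the extremes of many genes over 26 rats that share libraries and normalization. Prkdc is a DNA repair kinase and Cep162 a centriolar protein. The highest r of a member with Dcx was the 0.44 of Stmn1.

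Genes of the stages before and after the newborn neuron were compared through lists assembled by name. Their counts stand against the shares of all tested genes, 1.85% lower and 1.02% higher in Dox than in Veh, 3.95% and 3.89% in Dox + ABT than in Veh, and 1.71% and 2.32% in Dox than in Dox + ABT. Among 15 neural stem cell genes tested, 2 were lower and 0 higher in Dox than in Veh. Id4, an inhibitor of basic helix-loop-helix factors, fell from 325 ± 48.0 (SD, n = 10) to 254 ± 60.5 (SD, n = 8). Its log2 fold change was -0.38 (limma p = 0.00352). Thrsp, a lipogenic protein of quiescent stem cells, fell from 590 ± 189 to 395 ± 155, or -0.58 (limma p = 0.00758). In Dox + ABT, Thrsp was lower than in Veh (-0.57) and Notch2, a Notch receptor, was higher (0.52). Among 12 cycling cell genes, the proliferation marker Mki67 was higher in Dox (0.86, limma p = 0.00241) and Mcm6, a helicase subunit of DNA replication, was lower (-0.35, limma p = 0.00933). By sign alone, 10 of these 12 genes were lower in Dox and 2 higher, with a median of -0.10, where 48.9% of all tested genes were lower. Mcm6 was also lower in Dox + ABT (-0.52, limma p = 0.000283). With the kind as a covariate, Thrsp no longer passed in either comparison with Veh, nor did Notch2 in Dox + ABT or Mcm6 in Dox.

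Of 21 further immature neuron genes, 0 passed in any of the 3 comparisons, and their median log2 fold change was -0.15 in Dox and -0.03 in Dox + ABT against Veh. With the kind as a covariate the medians were -0.05 and -0.02, and 1 gene of this list, Neurod2, passed in Dox against Dox + ABT. The smallest p in Dox belonged to Marcksl1, an actin-regulating protein (-0.34, limma p = 0.0231), and Nnat, a small membrane protein of developing brain (-0.53, limma p = 0.0259). Of 8 mature granule cell genes, 0 passed in Dox and 2 were lower in Dox + ABT than in Veh. These were the secreted synaptic proteins C1ql2, from 7174 ± 1632 (SD, n = 10) to 5129 ± 784 (SD, n = 8), and C1ql3, from 2376 ± 791 to 1548 ± 133, with log2 fold changes of -0.46 and -0.55. C1ql3 was also higher in Dox than in Dox + ABT (0.66), as was Neurod1 among the members.

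**Figure D5:**
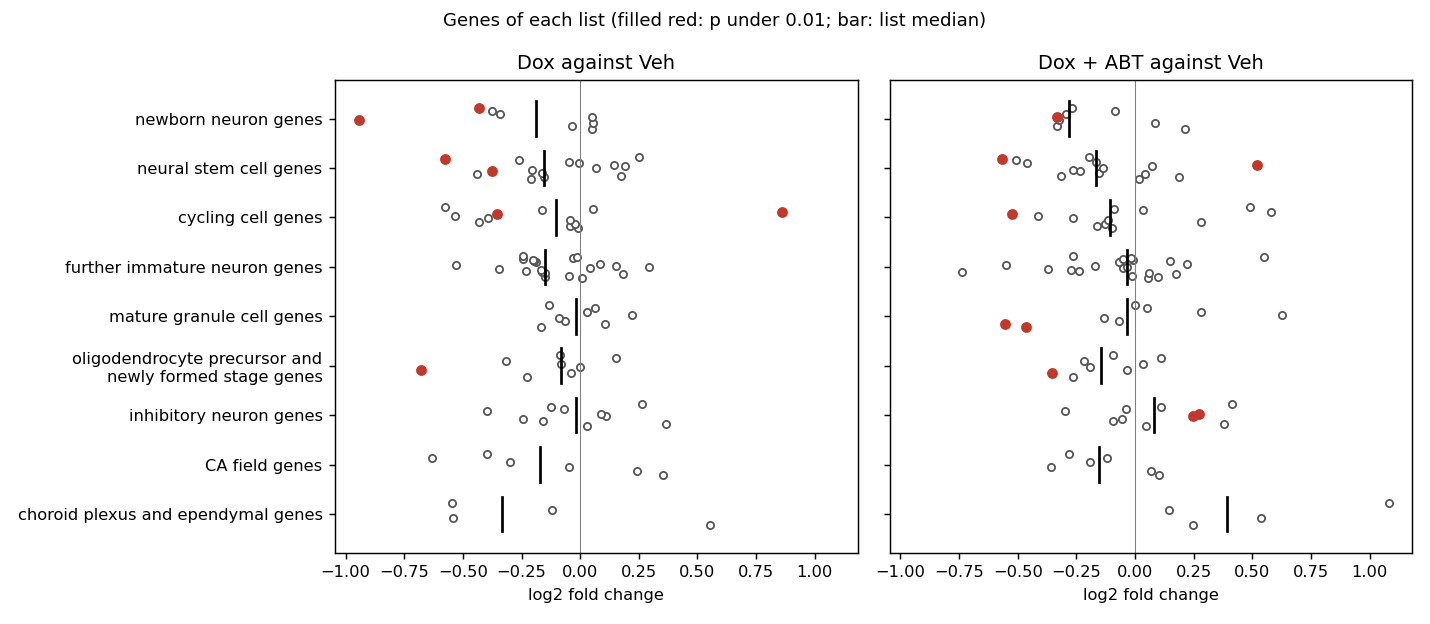
Log2 fold changes (horizontal axis) of the tested genes of 9 lists in Dox against Veh and Dox + ABT against Veh; 1 point per gene, red where p was under 0.01 without adjustment, and a bar at the list median. The members' medians are -0.19 and -0.28 in this fit (-0.14 and -0.17 with the kind as a covariate), and none of the 21 further immature neuron genes is red.

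Other cells that the dissected tissue could hold also differed between rats. Among 8 genes of oligodendrocyte precursors and newly formed oligodendrocytes, Enpp6 was lower in Dox than in Veh (-0.68) and than in Dox + ABT (-0.64), and Cspg4 was lower in Dox + ABT than in Veh (-0.35). Of 10 inhibitory neuron genes, 0 passed in Dox, and Gad1 (0.25) and Gad2 (0.27), which make GABA, were higher in Dox + ABT than in Veh. All 10 were lower in Dox than in Dox + ABT, where 50.2% of all tested genes were lower. Their median was -0.12 against -0.001 over all genes, and 0 of them passed. With the kind as a covariate 6 of the 10 were lower (median -0.10). Of 6 CA field genes and 4 choroid plexus and ependymal genes tested, 0 passed in any comparison. Their summed levels still varied widely, in normalized counts. For the CA field genes the sum ran from 3285 to 17439 among Veh rats, from 3242 to 15917 among Dox rats and from 3761 to 24055 among Dox + ABT rats, and for the choroid plexus and ependymal genes from 108 to 255, 105 to 241 and 140 to 488 in the same order. The smallest p in Dox against Veh belonged to Coch (0.24) and Bok (0.35) of the CA field list and to Ccdc153 (0.55) and Ttr (-0.54) of the choroid plexus list. In Dox + ABT all 4 tested genes of the choroid plexus list were higher than in Veh (median 0.39), most of all Ttr, a carrier protein made by the choroid plexus, at 1.08 (limma p = 0.0791). The Veh rats averaged 55.9 ± 26.3 (SD, n = 10) normalized counts of Ttr. The Dox rats averaged 46.5 ± 41.6 (SD, n = 8), a log2 fold change of -1.63 against the 155 ± 127 (SD, n = 8) of Dox + ABT. That difference did not pass (limma p = 0.0147). The part of these cells in the results for the members was not tested. Summed mature granule cell genes were present in every rat, from 10009 to 16320 normalized counts. Over all lists but the members, the genes that passed had limma adjusted p from 0.108 to 0.338. With kind as a covariate, Id4, Enpp6 and Mki67 passed again in Dox against Veh (1.07% of all tested genes were then higher), Mcm6 and C1ql2 in Dox + ABT against Veh, and C1ql3 and Enpp6 in Dox against Dox + ABT, where Neurod2 also passed (0.41, higher in Dox). The others no longer passed. In Dox against Veh these were Thrsp (-0.44, limma p = 0.0115) and Mcm6 (-0.30, limma p = 0.0196). In Dox + ABT against Veh they were Thrsp (-0.29), Notch2 (0.16), C1ql3 (-0.22), Cspg4 (-0.22), Gad1 (0.12) and Gad2 (0.16), at limma p from 0.0503 to 0.159, each at least 1.5 times smaller than before.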

How the data were processed

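RNA-seq was measured in the DG of 26 rats, grouped by the sample titles. The authors selected poly(A) RNA, sequenced on an Ion Proton instrument, aligned to rn6 with STAR 2.5.3a in Partek Flow, counted per transcript row and divided each library by its Median Ratio factor. The deposited values are this normalized signal, not whole reads, so no count test was run: among values under 40 in genes with 1 row, the share within 0.02 of a whole read was 72.1% to 75.1% by library. All 26 columns of values were mapped, and 0 pairs of libraries held identical values. Rows of a gene were summed, and genes with a mean of at least 5 were fitted on log2(value + 1) with limma 3.58.1 in R 4.3.3 (lmFit, contrasts.fit, eBayes with a variance trend), with all rats in 1 fit of 3 groups, tested at p under 0.01 two-sided, with Benjamini-Hochberg adjustment over 15595 genes. The fit was tested on simulated data. Replicate numbers are from the titles, and the main fit took them only as names of rats. Deviations of same-numbered rats, with the kind of library not removed, correlated at -0.22 to 0.44. These were not compared with differently numbered rats, so whether a number ties rats together was not tested. The labels do not tie rats to cages or litters. Permutation tests of the correlations used 100000 permutations, over 7 pairs rather than the 9 planned, since 2 members have no rows here. Promoters were matched by symbol in RefSeq's GRCr8 table. Plots used matplotlib 3.10.9 under Python 3.11.15.

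The members and the lists were chosen with earlier results of these data known. The genes named are all members, of each other list the genes that passed in any comparison (up to 4, or else the 2 with the smallest p in Dox against Veh), and the 6 genes most like Dcx. Alternatives were pseudocounts of 0.5 and 5, no filter or a mean of at least 20, trimmed-mean and quantile rescaling, no variance trend, robust eBayes, arrayWeights, only the 2 groups compared, the exact test, the kind of library as a covariate, a replicate block, the row with the highest mean, and left-out rats.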

Additional observations from a re-analysis of the deposited data

Results flagged for a closer look

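Igfbpl1 in the Dox + ABT group had 1 rat far from the others. Rat 6 had 4.82 normalized counts, the next lowest rat had 12.5, and the gap was 0.593 of the range of the group, above Dixon's critical value of 0.526 for 8 samples. About 1 in 20 groups is marked so by chance. Without that rat, Igfbpl1 differed from Veh by -0.14 in place of -0.32 on the log2 scale (limma p = 0.595), and Dox differed from Dox + ABT by -0.80 (limma p = 0.00680). The library was of the first kind.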

How the results depend on the processing

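Of 354 log2 fold changes of members under 15 alternatives, 322 kept their direction and their side of the threshold, 16 reversed, 8 no longer passed and 8 newly passed. In Dox against Veh, 2 members passed, and 1 did with a filter at a mean of 20 (where Igfbpl1 and Draxin were not fitted), only the 2 groups compared, the kind of library as a covariate, the row with the highest mean, without Dox rats 1 and 13 (1.41% to 2.84% of all tested genes in these fits), and in the exact test, while 3 did with arrayWeights (a fit in which 20.2% of all tested genes passed). In Dox + ABT against Veh, 1 passed, and 4 did with arrayWeights (34.0% of all genes), 2 with only the 2 groups compared (8.15%), 0 with the kind as a covariate (1.37%) and 0 with the replicate block (7.57%). In Dox against Dox + ABT, 1 passed, and 2 did with arrayWeights (10.3%), 2 with the kind as a covariate (4.76%), 2 without Dox rats 1 and 13 (3.54%) and 0 with the replicate block (2.58%). With the block, Neurod1 stood at -0.33 (limma p = 0.0110) against Veh and 0.31 (limma p = 0.0641) between the treated groups. Whether rats with the same number share more than the number was not tested. Leaving out each rat gave 1 to 2 members in each comparison. The cause of these changes was not tested.

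Signs reversed mostly where the value lay near 0. In Dox against Veh these were Dcx (-0.0350 with the kind as a covariate, -0.0129 without Dox rats 1 and 13), Sox11 (0.12 with arrayWeights), Neurod1 (-0.0828 with arrayWeights, -0.0206 with the block) and Dpysl3 (0.0289 with the kind, 0.17 for the highest row, 0.13 without the 2 rats). In Dox + ABT against Veh, Stmn1 was at 0.0145 with quantile rescaling and 0.18 with the kind. In Dox against Dox + ABT, Dcx was at 0.0386 with the block, Sox11 at 0.0107 with quantile rescaling, 0.34 with arrayWeights and 0.0554 with the kind, and Draxin at 0.15 with quantile rescaling and 0.16 without the 2 rats. The r of Dcx and Stmn1 was -0.12 with group means alone removed. With 1 rat left out, Dcx ran from -0.0225 to 0.13, Neurod1 from -0.00519 to 0.0928, Dpysl3 from -0.13 to 0.0555 and Draxin from -0.12 to 0.23 in Dox against Veh, Draxin from -0.0885 to 0.18 in Dox + ABT against Veh, and Sox11 from -0.19 to 0.0784 and Draxin from -0.21 to 0.14 in Dox against Dox + ABT. Igfbpl1, Draxin and Sox11 rest on few reads, so counting error limits each value.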
